A study of Rattus norvegicus with 8 samples.

Results

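Clca1, a gene best known from mucous cells of the airway, was followed here with 9 genes of airway secretory and ciliated cells in RNA from CD31-selected rat lung cells. The 10 genes were listed by symbol because earlier results of the same arrays showed airway genes to be high on some monocrotaline arrays. Not all 10 were so, since no monocrotaline array of Tppp3 or Sec14l3 lay above all saline arrays. The monocrotaline and saline signals chose the 10 genes, so their differences are described below without a test. All 10 were found on the array through their RefSeq accessions, with 11 probes, and all 10 passed the filter on dim probes, among 19137 genes that did. The filter asked for a signal well above background on at least 4 of 8 arrays, and a gene above it only after monocrotaline could thus pass.

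The rats were Sprague-Dawley animals of 8 to 10 weeks. One group of 4 rats received 60 mg/kg monocrotaline under the skin, a plant alkaloid used to bring on pulmonary hypertension, and the other 4 received saline by the same route. On day 5 the lungs were digested with collagenase, cells were pulled out with beads that bind CD31, and their RNA was taken without culture and read on 1 Cy3 array per rat. CD31 marks endothelial cells and is carried by platelets and some leukocytes too, so the RNA is that of a bead-selected mixture.

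The conducting airways are lined by secretory cells, which release secretoglobins and mucus, and by ciliated cells, whose beating axonemes move that mucus. CLCA1 is a secreted metalloprotease-like protein of mucous (goblet) cells that is strongly induced by the cytokine IL-13 in the airway. Healthy rodent airways hold few goblet cells, whereas club cells, the secretory cells rich in SCGB1A1, are common.

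The RefSeq promoter table (build GRCr8) held windows of 250 bases before and 50 bases after the start of 8 of the 10 genes. The windows of Clca1 and of Bpifa1 and Scgb3a1, the airway genes whose signals resembled it most over the 8 arrays, are shown so that the start regions of genes that moved together can be read side by side. Capitals mark a match to a searched motif on either strand, and a window without capitals held none.
Clca1, chr2:236624665-236624964, minus strand: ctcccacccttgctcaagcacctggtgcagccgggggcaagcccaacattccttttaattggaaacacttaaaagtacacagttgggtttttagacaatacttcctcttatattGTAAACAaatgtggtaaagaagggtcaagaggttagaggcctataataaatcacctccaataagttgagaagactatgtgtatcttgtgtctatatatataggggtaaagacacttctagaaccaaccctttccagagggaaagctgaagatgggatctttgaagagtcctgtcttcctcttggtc
Bpifa1, chr3:163087715-163088014, plus strand: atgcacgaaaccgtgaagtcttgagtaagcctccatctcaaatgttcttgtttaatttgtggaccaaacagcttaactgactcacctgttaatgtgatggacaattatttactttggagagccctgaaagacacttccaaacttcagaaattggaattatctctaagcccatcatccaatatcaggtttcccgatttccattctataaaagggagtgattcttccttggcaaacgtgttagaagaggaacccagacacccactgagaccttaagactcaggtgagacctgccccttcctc
Scgb3a1, chr10:34468916-34469215, plus strand: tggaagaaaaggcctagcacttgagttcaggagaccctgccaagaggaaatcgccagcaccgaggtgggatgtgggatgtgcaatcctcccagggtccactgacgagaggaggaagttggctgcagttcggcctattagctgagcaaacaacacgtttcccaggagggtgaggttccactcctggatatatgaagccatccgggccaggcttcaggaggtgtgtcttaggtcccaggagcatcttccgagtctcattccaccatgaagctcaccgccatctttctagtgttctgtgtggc
Searched on both strands were TTC and GAA with any 4 bases between them (bound by STAT6, which acts downstream of IL-13), GTTGCC (an RFX motif known from ciliary genes) and TGTTTAC (bound by forkhead factors such as FOXJ1 and FOXA). No searched motif overlapped another in these windows. The single match was a TGTTTAC on the reverse strand of the Clca1 window, its first base at -136 from the start. This motif lay in 1 of the 8 windows and in 3.78% of all 33469 windows of that length. The STAT6 motif and GTTGCC lay in 0 of the 8 windows, against 7.28% and 12.2% of all windows.

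Clca1 was higher on every monocrotaline array than on any saline array. Its scaled log2 signal (log2 of the scanner's processed signal, with the 75th percentile of each array set to 0) was -3.90, -5.82, -2.99 and -4.74 on monocrotaline replicates 1 to 4. It was -6.86, -8.45, -8.33 and -7.34 on saline replicates 1 to 4. The groups did not overlap, and the lowest monocrotaline array lay 1.04 log2 units above the highest saline array. The means were -4.36 ± 1.21 after monocrotaline and -7.75 ± 0.77 after saline (SD, n = 4 each), a log2 difference of 3.38 ± 0.62 (SE), which is 10.4-fold. Before scaling, the processed signals were 150.3, 51.1, 308.2 and 121.7 after monocrotaline, against 21.4, 4.27, 8.42 and 15.3 after saline.

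The Clca1 signal was well above background on 4 of 4 monocrotaline arrays and, of the saline arrays, only on replicates 1 and 4. The size of its difference therefore rests on saline signals near background. With normexp background correction, which adds 50 to each corrected signal, the log2 difference was 1.18 ± 0.36 (SE). Foxj1 and Dynlrb2 below have the same limit, since their saline signals were not all above background.

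**Figure D1:**
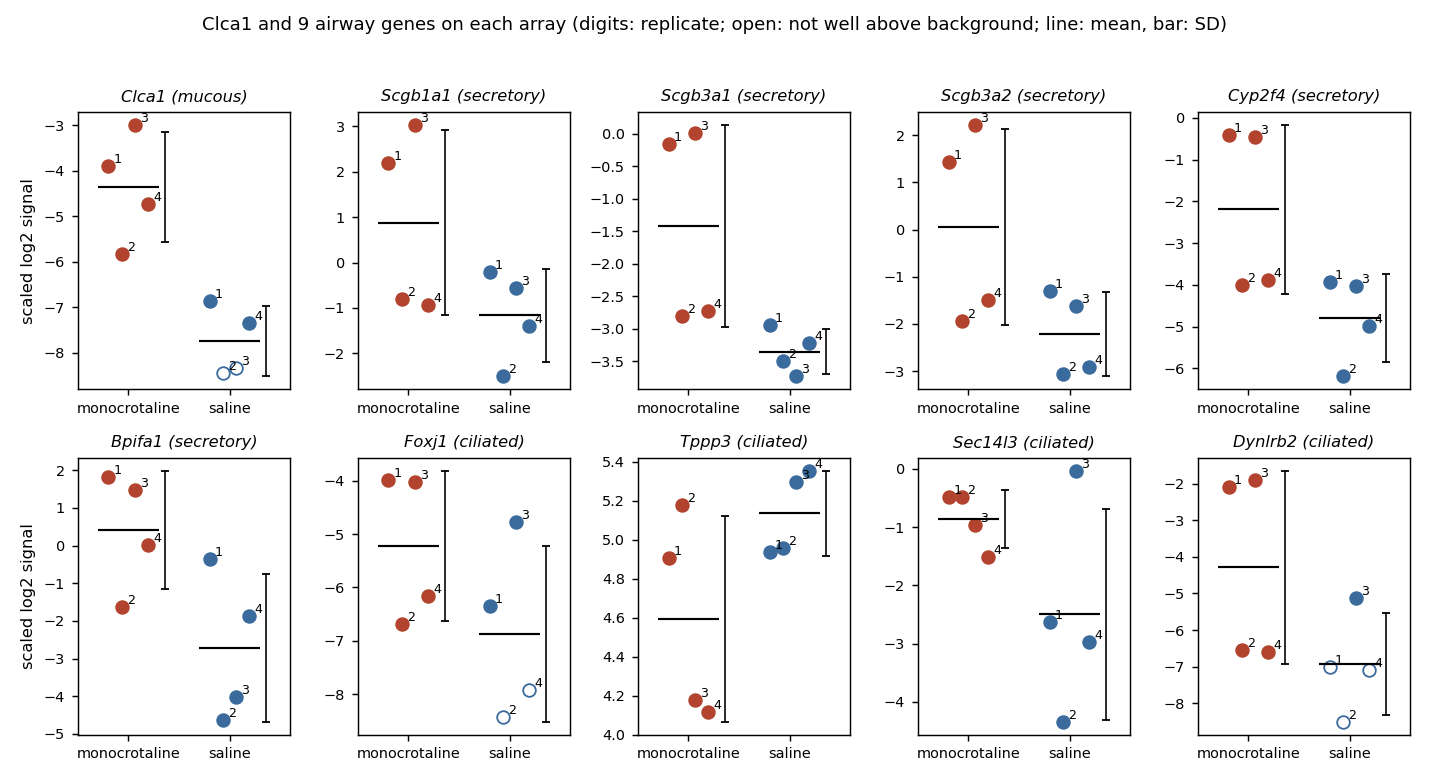
Scaled log2 signal (vertical axes, a separate range in each panel) of Clca1 and the 9 airway genes on 4 monocrotaline arrays (red) and 4 saline arrays (blue), with replicate numbers, group means (lines) and SDs (bars); open points were not well above background. Clca1 and Scgb3a1 have no monocrotaline point at or below a saline point, while in the other 8 panels the groups overlap.

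The 5 secretory genes were highest on monocrotaline replicates 1 and 3, and on replicates 2 and 4 all but Bpifa1 lay within 2-fold of their saline means. Scgb1a1, the club cell secretoglobin, had 2.18, -0.80, 3.03 and -0.93 on monocrotaline replicates 1 to 4, against -0.20, -2.51, -0.56 and -1.39 on saline replicates 1 to 4. Replicates 1 and 3 stood above all saline arrays, and replicates 2 and 4 lay below saline replicates 1 and 3. The log2 difference was 2.04 ± 0.97 (SE, n = 4 per group).

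Scgb3a2, a secretoglobin of club and other distal airway cells, had 1.44, -1.95, 2.22 and -1.49 after monocrotaline, against -1.30, -3.06, -1.62 and -2.90 after saline. Monocrotaline replicate 2 lay below saline replicates 1 and 3 and replicate 4 below saline replicate 1, with a log2 difference of 2.28 ± 0.97 (SE). Cyp2f4, a cytochrome P450 of club cells, had -0.42, -3.99, -0.46 and -3.88 after monocrotaline, against -3.93, -6.20, -4.04 and -4.98 after saline. Monocrotaline replicate 2 lay just below saline replicate 1, and the log2 difference was 2.60 ± 0.97 (SE).

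Scgb3a1, a secretoglobin of larger airways, had -0.16, -2.81, 0.01 and -2.72 on monocrotaline replicates 1 to 4, against -2.95, -3.50, -3.74 and -3.23 after saline. Its groups did not overlap, but the gap was 0.13 log2 units, and replicates 2 and 4 lay near the saline arrays. The log2 difference was 1.93 ± 0.68 (SE).

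Bpifa1, a secreted antimicrobial protein of the upper airways, had 1.83, -1.62, 1.46 and 0.01 on monocrotaline replicates 1 to 4. On saline replicates 1 to 4 it had -0.36, -4.64, -4.01 and -1.88. Its saline arrays covered a 19.4-fold range, the widest of the 5 secretory genes, and monocrotaline replicate 4 stood above all of them. The log2 difference was 3.14 ± 1.07 (SE).

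The genes listed as ciliated did not move as a block. Dynlrb2, a light chain of dynein, had -2.11, -6.55, -1.90 and -6.59 on monocrotaline replicates 1 to 4, against -7.01, -8.52, -5.13 and -7.09 after saline. Only replicates 1 and 3 stood above all saline arrays, and replicates 2 and 4 lay below saline replicate 3. The log2 difference was 2.65 ± 1.27 (SE), and the second, dimmer Dynlrb2 probe gave 2.61 with monocrotaline replicates 1 and 3 again the highest. In the saline group its signal cleared background on 1 array.

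Foxj1, the transcription factor that switches on the motile cilium programme, had -3.99, -6.68, -4.03 and -6.16 after monocrotaline, against -6.36, -8.43, -4.77 and -7.93 after saline. Saline replicate 3 lay above monocrotaline replicates 2 and 4, and the log2 difference was 1.66 ± 0.93 (SE). In the saline group its signal cleared background on 2 arrays, and with normexp the difference was 0.36.

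Sec14l3, a lipid-transfer protein of the SEC14 family found in airway epithelium, went another way. It had -0.48, -0.48, -0.96 and -1.52 on monocrotaline replicates 1 to 4 and -2.63, -4.35, -0.03 and -2.98 on saline replicates 1 to 4. Its highest array was saline replicate 3, and its monocrotaline arrays covered only a 2.06-fold range, against 19.98-fold among saline arrays. The log2 difference was 1.64 ± 0.80 (SE).

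Tppp3, of a family of proteins that bind tubulin, was the member with a lower monocrotaline mean. It had 4.91, 5.18, 4.18 and 4.11 on monocrotaline replicates 1 to 4, against 4.93, 4.96, 5.30 and 5.35 after saline. The groups overlapped, and its monocrotaline order, with replicate 2 highest, was unlike that of Clca1. The log2 difference was -0.54 ± 0.26 (SE). Tppp3 was bright on every array, with means of 4.59 after monocrotaline and 5.13 after saline. Those of Pecam1, the gene of CD31, were 4.56 and 4.86, and those of Foxj1 -5.21 and -6.87. Which cells the Tppp3 signal came from was not tested, so it may not stand for ciliated cells here.

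Across the 10 genes 9 had a positive log2 difference, with a median of 2.16, beside -0.02 over all genes tested. By limma with Benjamini-Hochberg adjustment over all genes, 1 of the 10, Clca1, was called at an adjusted p under 0.05, beside 1.42% of all genes called in either direction (1.36% higher and 0.0627% lower). Clca1 was called in 6 of 19 alternative settings or fits with arrays left out, and the 9 airway genes in 0 of them. All 4 monocrotaline arrays lay above all 4 saline arrays in 2 of the 10, beside 4.65% of all genes, and below them in 0, beside 3.77%. The genes were chosen on this contrast, so nothing is read from these counts.

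Set against the airway genes array by array, Clca1 followed them in part. As log2 signal above the saline mean, Clca1 stood at 3.85, 1.92, 4.76 and 3.01 on monocrotaline replicates 1 to 4. The mean of the 5 secretory genes stood at 3.82, 0.62, 4.10 and 1.05 on the same arrays. That of the 4 ciliated genes stood at 2.37, 0.66, 2.12 and 0.25, and without Tppp3 at 3.24, 0.87, 3.14 and 0.68. Replicates 3 and 1 were thus the highest for Clca1 and for the secretory mean, in the same order down to replicate 2.

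The measures parted on monocrotaline replicates 2 and 4. There the secretory mean lay within the saline range of -1.13 to 1.10, and the ciliated mean within its saline range of -1.29 to 1.64, while Clca1 was 3.79-fold and 8.05-fold its saline mean. The Clca1 folds rest on a saline mean in which replicates 2 and 3 were not well above background. On monocrotaline replicates 2 and 4 Bpifa1 was 2.15-fold and 6.67-fold its saline mean, and Sec14l3 4.06-fold and 1.97-fold. The other airway genes stayed below 2-fold there. Clca1 minus the secretory mean was 0.03 and 0.65 on replicates 1 and 3, against 1.31 and 1.96 on replicates 2 and 4.

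In the saline group Clca1 stood at 0.89, -0.71, -0.58 and 0.41 on replicates 1 to 4, with replicates 2 and 3 not well above background. The secretory mean was highest on saline replicate 1, at 1.10, as Clca1 was. The ciliated mean was highest on saline replicate 3, at 1.64, where Clca1 was below its group mean. The saline order of Clca1, replicate 1 over 4 over 3 over 2, was shared by Bpifa1 among the 9 airway genes. Scgb1a1, Scgb3a2, Cyp2f4, Foxj1, Sec14l3 and the brighter Dynlrb2 probe were higher on saline replicates 1 and 3 than on 2 and 4. For all of these but Sec14l3, replicates 1 and 3 were thus the highest in both groups. That was not so for Scgb3a1, Bpifa1 or Tppp3.

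The mean log2 difference of Clca1 was 1.45 above that of the 9 airway genes, 0.99 above the secretory genes alone and 2.03 above the ciliated genes alone. Tppp3 lowers the airway and ciliated means, and the ciliated mean difference was 1.35 with it and 1.98 without it. With normexp correction the excess of Clca1 over the 9 airway genes was -0.23. The log2 differences were then 1.18 for Clca1, 1.96 for Scgb1a1, 2.10 for Scgb3a2 and 2.72 for Bpifa1. Whether Clca1 differed by more than the airway genes therefore depends on how signals near background are treated. With the airway score of each array as a covariate in the fit, the Clca1 difference was 2.17 ± 0.59 (SE), and 0 genes of any kind were called in that fit. Without monocrotaline replicates 1 and 3 the log2 difference of Clca1 was 2.47, that of Bpifa1 1.92 and that of Sec14l3 above 1, while the other 6 airway genes with positive differences lay between 0.30 and 0.85.

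**Figure D2:**
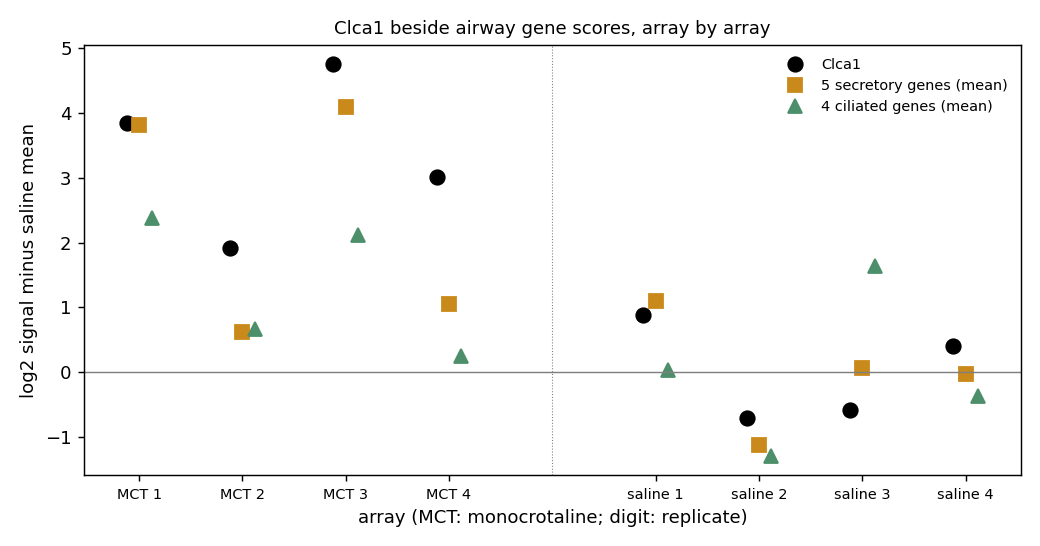
Log2 signal minus the saline mean (vertical axis) of Clca1 (circles), the mean of 5 secretory genes (squares) and the mean of 4 ciliated genes (triangles) on each of the 8 arrays (MCT: monocrotaline). Clca1 is above the highest saline value on all 4 monocrotaline arrays, and the squares are at 3.82 and 4.10 on replicates 1 and 3 but 0.62 and 1.05 on replicates 2 and 4.

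As a measure of likeness, with no test and with the group difference and the array as shared sources, Pearson's r to Clca1 over the 8 arrays was 0.92 for Bpifa1, 0.90 for Scgb3a1, 0.87 for Cyp2f4, 0.85 for Scgb3a2 and 0.83 for Scgb1a1 (Spearman's rho 0.95, 0.98, 0.93, 0.83 and 0.71). It was 0.77 for Dynlrb2, 0.66 for Foxj1, 0.48 for Sec14l3 and -0.71 for Tppp3. With each group's mean subtracted first, r was 0.90 for Bpifa1 and 0.85 for Scgb3a1, but -0.09 for Sec14l3. Bpifa1 stood at place 24 and Scgb3a1 at place 51 of 19136 genes in likeness over 8 arrays.

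The 5 named genes most like Clca1 over the 8 arrays were Nacc1 (r = 0.97, rho = 0.95), Adm2 (0.96, 0.93), A2m (0.95, 0.98), Cxcr3 (0.95, 0.88) and Srsf1 (0.94, 0.86). Adm2 was well above background on 1 saline array and A2m on 0, and both on 4 monocrotaline arrays. They thus passed the filter mainly through the monocrotaline arrays, and its part in their likeness was not tested. With each group's mean subtracted, their r was 0.83 and 0.92. None of the 5 belongs to the airway lists: Adm2 encodes a vasodilator peptide, A2m a protease inhibitor, Cxcr3 a chemokine receptor of T cells, Srsf1 a splicing factor and Nacc1 a transcriptional regulator. Cxcr3 had -3.21, -4.29, -2.99 and -3.53 on monocrotaline replicates 1 to 4, against -4.22, -4.76, -4.85 and -5.08 after saline, with a log2 difference of 1.22 ± 0.30 (SE, limma adjusted p = 0.117). After subtraction of the group means the nearest were Spata18 (r = 0.97), Desi1 (0.96), Syce3 (0.95), Tnfrsf9 (0.94) and Ubac1 (0.93).

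Other ciliated cell genes, none of them used in choosing the 10, showed the same arrays on top. Of 20 measured, 17 had a positive log2 difference, with a median of 1.02 against -0.02 over all genes. None rose or fell (limma, adjusted p under 0.05), beside the 1.36% of all genes called higher. In 12 of the 20 the highest arrays were monocrotaline replicates 1 and 3, a pattern of 3.6% of all genes and of 8 of the 10 genes followed here. It was not particular to airway genes. Among genes of the lists below it was seen in 5 of 8 erythroid, 4 of 10 fibroblast and mesothelial, and 5 of 17 T and NK cell genes. It was also seen in 2 of 8 mucous genes, against 0 of 13 endothelial and 0 of 9 alveolar type 2 genes. Only 10 of the 20 were well above background on all saline arrays and 15 on all monocrotaline arrays. Genes that passed the filter mainly through the monocrotaline arrays push these counts and the median up, so they describe the measured genes and support nothing further. The ciliated list mean stood at 1.68, 0.19, 1.66 and 0.21 above saline on monocrotaline replicates 1 to 4, against -0.03, -0.41, 0.72 and -0.28 on saline replicates 1 to 4.

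Tmem212, a membrane protein gene of ciliated cells singled out after its values were seen, had -3.10, -7.47, -3.18 and -7.23 after monocrotaline, against -8.86, -8.69, -6.63 and -9.41 after saline. Its pattern was that of Dynlrb2, high on replicates 1 and 3 and otherwise near saline, with a log2 difference of 3.15 ± 1.16 (SE, adjusted p = 0.292). It was well above background on 3 monocrotaline arrays and 1 saline array, so the size of that difference is uncertain. Rfx2, a transcription factor of ciliogenesis and the brightest of the list, stood at 0.11 ± 0.20 (adjusted p = 0.851).

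Other secretory genes were less uniform. Of 11 measured 8 had a positive difference, and the median was 0.24. None passed the test, beside 1.42% of all genes, and 2 had monocrotaline replicates 1 and 3 on top, beside 3.6%. Bpifb1, a relative of Bpifa1 picked after its values were seen, had -1.02, -4.64, -1.17 and -4.37 after monocrotaline, against -4.85, -5.26, -4.34 and -4.82 after saline. Replicates 1 and 3 stood apart by over 3 log2 units while replicates 2 and 4 lay among the saline arrays (2.01 ± 0.86, adjusted p = 0.355). Aldh1a1, a retinal dehydrogenase and the brightest of the list, stood at 0.99 ± 0.77 (adjusted p = 0.606).

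The mucous programme around Clca1 had 0 calls among 8 measured genes, beside 1.42% of all genes, a share at which 0 of 8 is no result about the list. It had 5 positive differences and a median of 0.33. Spdef, a transcription factor of goblet cells singled out after its values were seen, had -3.43, -3.59, -4.33 and -4.22 after monocrotaline, against -3.63, -6.49, -2.25 and -4.88 after saline. Its highest and lowest arrays were both saline (0.42 ± 0.79, adjusted p = 0.857). Spdef was well above background on 3 saline arrays, so the order of its low arrays is uncertain. Itln1, a lectin of goblet cells picked after its values were seen, had -1.99, -8.81, -1.86 and -5.84 after monocrotaline, against -7.46, -8.02, -6.60 and -8.89 after saline. It was high on replicates 1 and 3 (3.11 ± 1.48, adjusted p = 0.397). It was well above background on 3 monocrotaline arrays and 1 saline array, so the order of its low arrays and the size of its difference are uncertain. Klf4, a transcription factor of many cells, stood at -0.26 ± 0.15 (adjusted p = 0.483). Foxa3, Agr2, Tff1, Tff3, Ern2 and Slc26a4 did not pass the filter, and Muc5ac and Muc2 had no probe matched.

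Genes of type 2 cytokines and their targets had 0 calls among 14 measured, again too few to set against 1.42% of all genes, with 6 positive differences and a median of -0.12. Il4, Il5, Il9, Il13 and Il25 did not pass the filter. Il33, an alarmin stored in nuclei of endothelial and epithelial cells, stood at -0.66 ± 0.35 (adjusted p = 0.435). Chia, an acidic chitinase picked after its values were seen, had -1.16, -5.14, -0.66 and -3.88 after monocrotaline, against -4.13, -7.85, -5.09 and -4.70 after saline. Monocrotaline replicates 1 and 3 were its highest arrays (2.73 ± 1.15, adjusted p = 0.352), a pattern of 1 of the 14 genes, beside 3.6% of all genes. Chia was well above background on 3 saline arrays, so the size of its difference is uncertain.

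In the CLCA family, Clca4 and Clca2 lie next to Clca1 in RefSeq (GRCr8) and were measured too. Clca2 had -3.80, -7.31, -3.92 and -3.47 after monocrotaline, against -3.59, -3.88, -2.53 and -4.66 after saline, with replicate 2 far below the rest (-0.96 ± 0.86, adjusted p = 0.667). It was well above background on 3 monocrotaline arrays, so the size of its difference is uncertain. Clca4, added after its values were seen, stood at 0.003 ± 0.202 (adjusted p = 0.996). Neither had monocrotaline replicates 1 and 3 on top, and Clca5 and Clca4l did not pass the filter.

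Other cell type markers moved with the groups or with single arrays, and their part in the Clca1 difference was not tested. Of all genes 1.42% were called, a share at which 0 calls in lists this small is no result about them. The 13 endothelial markers measured were well above background on all 8 arrays, and all 13 had negative differences, with 0 calls and a median of -0.50. Pecam1, the gene of CD31, stood at -0.30 ± 0.19 (adjusted p = 0.522), Cdh5, the endothelial cadherin, at -0.47 ± 0.25 (adjusted p = 0.445) and Plvap, of fenestral diaphragms, at -0.50 ± 0.18 (adjusted p = 0.283). The list mean ranged from -0.90 to -0.12 over the monocrotaline arrays and from -0.24 to 0.35 over the saline arrays.

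The general epithelial list, 12 measured with 0 calls and 10 positive differences, had a median of 0.77 and 0 genes with monocrotaline replicates 1 and 3 on top. Its mean ranged from 0.45 to 1.12 after monocrotaline and from -1.32 to 1.25 after saline, and Krt18, a keratin, stood at 0.77 ± 0.63 (adjusted p = 0.633). Alveolar type 2 and type 1 markers, 9 and 7 measured with 0 calls, had medians of 0.37 and 0.24 and ranged from -0.03 to 0.55 and from -0.87 to 1.22 after monocrotaline, against -1.67 to 1.13 and -1.06 to 1.45 after saline. Sftpc, surfactant protein C, stood at 0.30 ± 0.70 (adjusted p = 0.883) and Clic5, of type 1 cells, at -0.40 ± 0.29 (adjusted p = 0.576). The 7 airway basal cell markers had a median of -0.16 and 0 calls, with Tp63 at -0.32 ± 0.24 (adjusted p = 0.598). Their list mean ranged from -0.62 to 0.63 after monocrotaline, against -0.29 to 0.25 after saline. Tp63 had a mean scaled signal of 2.33, against -3.56 for Krt15, the next brightest of the list, and -6.60 for Krt5. Tp63 may thus not stand for basal cells here, which was not tested.

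Among the T and NK cell markers 17 were measured, of which 3 rose and 0 fell, beside 1.36% and 0.0627% of all genes. In 13 all monocrotaline arrays lay above all saline arrays, beside 4.65% of all genes. The risen genes were Cd247, the T cell receptor zeta chain (2.11 ± 0.33, adjusted p = 0.0249), Cd8b, a coreceptor (1.67 ± 0.30, adjusted p = 0.0390), and Zap70, a kinase of that receptor (1.66 ± 0.27, adjusted p = 0.0291). The list mean was 1.34, 0.95, 1.94 and 1.54 on monocrotaline replicates 1 to 4, against 0.39, 0.20, 0.26 and -0.85 on saline replicates 1 to 4, so that its monocrotaline order matched that of Clca1 at the ends, with replicate 3 highest and replicate 2 lowest. With 1 array left out, the count of calls was 0 when that array was monocrotaline replicate 1, 3 or 4, or was saline replicate 1, 2 or 3. It was 5 without monocrotaline replicate 2 and 2 without saline replicate 4.

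Erythroid markers, 8 measured with 0 calls and a median of 0.70, had a list mean of 2.27 on monocrotaline replicate 3 and -0.23 to 0.72 on the other monocrotaline arrays, against -0.58 to 0.48 after saline, and Hba-a1, alpha globin, stood at 0.52 ± 0.43 (adjusted p = 0.633). The 10 fibroblast and mesothelial markers, 0 called with a median of 1.11, ranged from 0.21 to 1.72 after monocrotaline, against -1.48 to 1.10 after saline, and were highest on monocrotaline replicates 1 and 3. Col1a2, a collagen chain, stood at 1.07 ± 0.64 (adjusted p = 0.496). The 9 mast cell, basophil and eosinophil markers had a median of 0.24, 0 calls and a range of -0.02 to 0.75 after monocrotaline, against -0.36 to 0.46 after saline, with Mcpt8, a basophil protease, at 0.23 ± 0.27 (adjusted p = 0.757). In such bulk RNA, more cells of a type and more RNA per cell cannot be told apart.

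**Figure D3:**
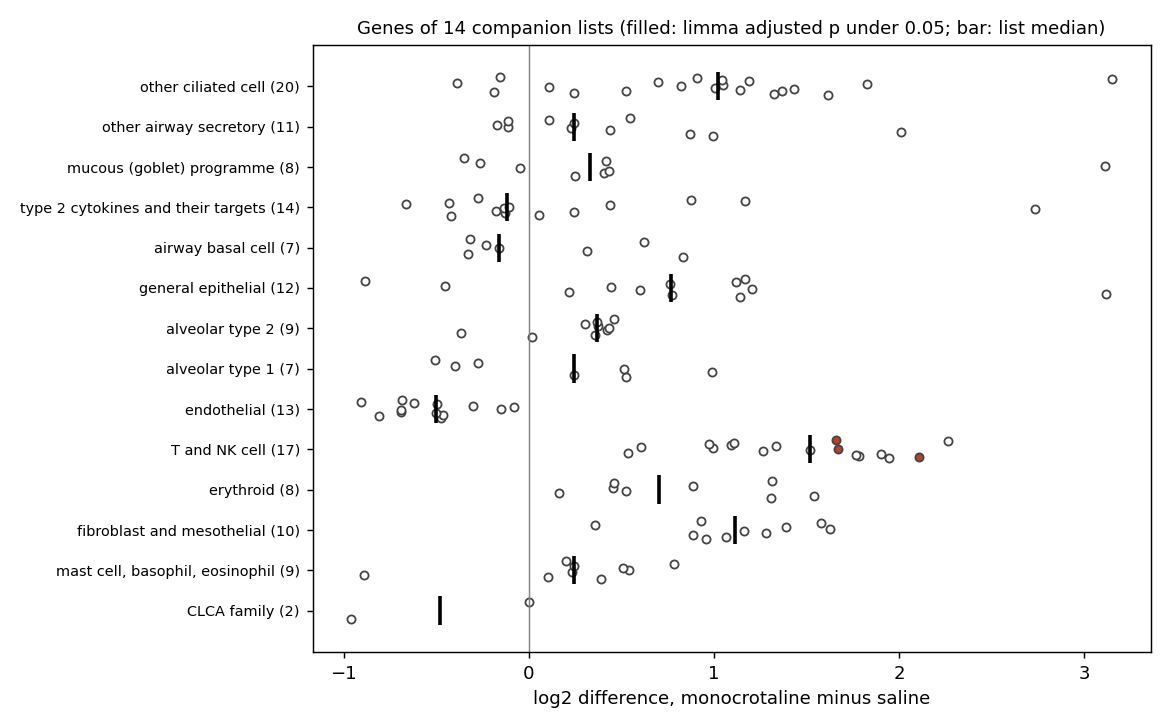
Log2 difference, monocrotaline minus saline (horizontal axis), of each measured gene of 14 lists (rows, with the number measured), with list medians as bars and genes called by limma filled. The 3 filled points are T and NK cell genes, the endothelial points all lie below 0, and the ciliated list has a median of 1.02.

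All 8 arrays lay on 1 slide, with the monocrotaline arrays in its second row and the saline arrays in its first, so slide row and treatment cannot be told apart. Between 74.9% and 77.7% of non-control spots were well above background on the monocrotaline arrays, against 70.8% to 76.4% on the saline arrays, and no spot was saturated. The labels tell the animals apart only by group and replicate number, and the number of arrays limits the precision of every value.

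**Figure D4:**
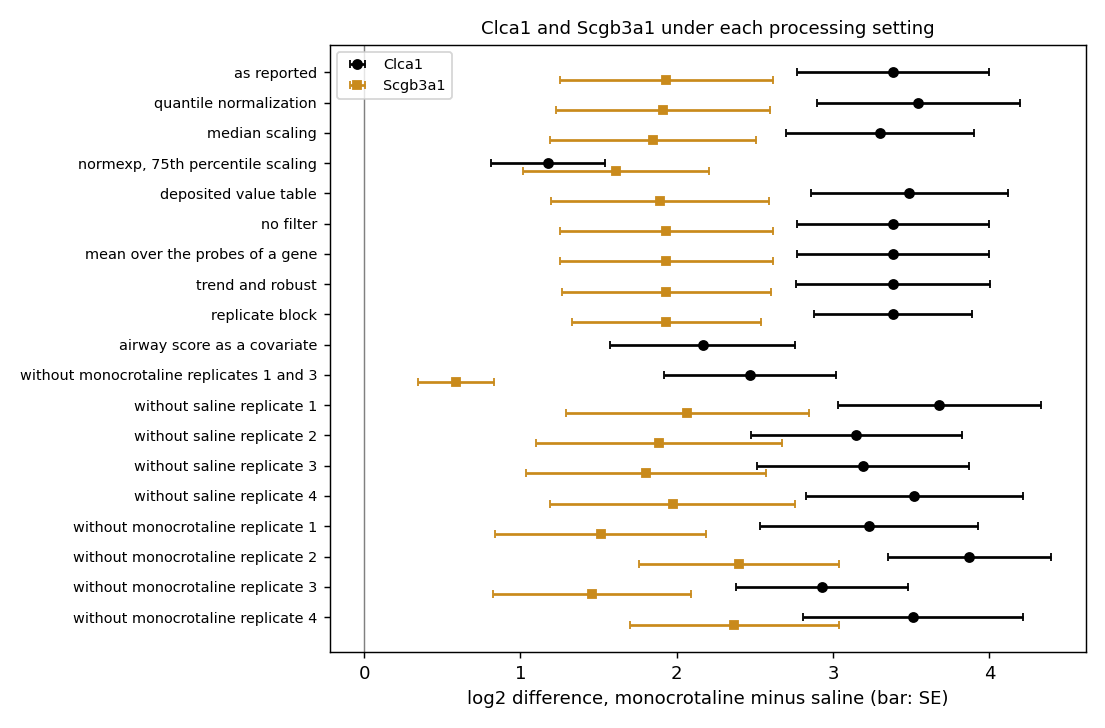
Log2 difference, monocrotaline minus saline (horizontal axis, with SE bars), of Clca1 (circles) and Scgb3a1 (squares) under each processing setting or with arrays left out (rows). Clca1 lies between 2.17 and 3.87 except under normexp, at 1.18, and Scgb3a1 falls to 0.59 without monocrotaline replicates 1 and 3.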

How the data were processed

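Expression was measured in bead-selected lung cells of 8 rats on 1-colour Agilent arrays, 4 per group, with groups taken from the titles. Per the file headers, the scanner files were made with Agilent Feature Extraction 10.7.3.1, and the deposited processed signal is an intensity after background subtraction and spatial detrending, without scaling between arrays. Deposited flag columns (other values) are 0 or 1. In the value table the authors deposited, log2 was taken a second time: 2 to the power of a value gave back log2 of the processed signal after quantile normalization (median absolute difference 9.89e-10), so it served as an alternative. The submitters' processing notes name limma 3.6.9, with no role.

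Here 4259 control spots and spots flagged as outliers were left out, and the log2 signals of a probe's spots were averaged. The 75th percentile of each array over non-control spots was set to 0. Of 30367 probes, 17 lacked an unflagged spot on some array, and 21652 were kept as well above background on at least 4 of 8 arrays. Accessions of 18006 probes matched a RefSeq symbol and 12361 did not. The probe with the highest mean signal stood for a gene, giving 19137 genes.

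The groups were compared with limma 3.58.1 in R 4.3.3 (two-sided, Benjamini-Hochberg adjusted over all genes, threshold 0.05), tested on simulated data beforehand. Every adjusted p in the text comes from this fit. The 10 genes, the 14 companion lists, the motifs and the tests were chosen with earlier results of these data known. Named by rule were the 10 genes, up to 3 called members of each list or else its brightest, Pecam1 and Cdh5. The same rule named the 5 genes nearest to Clca1 by each measure of likeness. Tmem212, Bpifb1, Spdef, Itln1, Chia and Clca4 fell outside this rule and were added after their values were seen. Replicate numbers occur in both groups, and they also mark the slide columns. Over all genes, deviations from the group means correlated at -0.02 to -0.33 between arrays of the same number. The numbers were therefore not taken to pair the rats, and nothing in the labels says that they do. A replicate block still lowered the SE of Scgb1a1 from 0.97 to 0.50 and that of Foxj1 from 0.93 to 0.29. Of the 10 genes only Tppp3 had a higher SE with it (0.31, against 0.26). Whether slide column or pairing lies behind this was not tested.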

Additional observations from a re-analysis of the deposited data

Results flagged for a closer look

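Within a group of 4 arrays, the following values stood apart by more than Dixon's critical value for 4 samples. There were 6 of them among 114 groups of values looked at, where chance gives about 1 in 20. Clca2 was low on monocrotaline replicate 2 at -7.31, and with it the mean of the 2 CLCA family genes at -1.96. Clca2 was well above background on 3 monocrotaline arrays. The dimmer Dynlrb2 probe was high on saline replicate 3 at -6.24, the array where Foxj1 and Sec14l3 were highest among saline arrays. Srsf1 was low on monocrotaline replicate 2 at -1.41. Zap70 was low on saline replicate 4 at -1.75, and the T and NK cell list mean was low on the same array at -0.85.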

How the results depend on the processing

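Limits: 4 arrays per group, 1 slide, and saline signals of Clca1 near background on 2 arrays. As reported, 260 genes rose and 12 fell, with 3 and 0 of the companion genes. Falls numbered 23 under median scaling. Companion rises numbered 5 under normexp, under a filter on all 8 arrays and under trend and robust options. With normexp Clca1 stood at 1.18, and its excess over the 9 airway genes turned from 1.45 to -0.23. With a replicate block, which is also a block on slide column, 0 genes rose, 0 fell and 0 companion genes were called. With the airway score as a covariate the same 3 counts were 0, and Clca1 stood at 2.17. Without monocrotaline replicates 1 and 3, which were high in airway genes in earlier results, 66 rose, 1 fell and 0 companion genes were called. Leaving out 1 array gave 9 to 269 rises (9 without saline replicate 1, 49 without monocrotaline replicate 4), 0 to 85 falls (85 without monocrotaline replicate 2), and 0 to 7 companion rises. It gave 2.93 to 3.87 for Clca1 and 1.00 to 1.71 for its excess. The causes were not tested. Clca1 kept a positive difference in all 18 alternatives that measured it, and none of the 9 airway genes changed sign in those run for it. The filter on all 8 arrays leaves out Clca1, Foxj1 and Dynlrb2 and gave no value for them.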
